A study of Mus musculus with 18 samples.

Results

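Myo1a, Lrba, Serpinb1c, Galnt7 and Tmem28 are described, 5 of 46725 genes in the counts and 131 of 391858 exon bins. They were picked because HSA-LR mice treated with Pip6a-PMO stayed away from WT mice, so the members were chosen by their levels in treated and HSA-LR mice against WT mice. Within a muscle those contrasts are given as descriptions with no test. The choice came with no stated threshold and named no muscle, so both muscles are counted as used.

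RNA was sequenced from the gastrocnemius and quadriceps of 3 WT mice, 3 HSA-LR mice labelled untreated and 3 HSA-LR mice given Pip6a-PMO by vein, all of the FVB strain and 20 weeks old. HSA-LR mice carry a human skeletal actin transgene with an expanded CTG repeat, under a promoter active in skeletal muscle only, and both HSA-LR groups carry it. Pip6a-PMO is a morpholino antisense oligonucleotide against CUG repeats, joined to a cell-penetrating peptide. Each mouse gave both muscles, which makes 18 libraries of polyA-selected RNA with 98916844 to 143135976 counts each.

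The expanded CUG RNA gathers in nuclei and holds MBNL proteins, which regulate splicing and other steps of RNA processing, and an antisense oligonucleotide on the repeat is meant to release them. The 5 genes belong to unrelated families. Myo1a encodes a class I myosin known from the brush border of the intestine, Lrba a BEACH-domain protein of vesicle traffic studied in immune cells, and Serpinb1c a clade B serpin close to Serpinb1a, an inhibitor of neutrophil proteases. Galnt7 encodes a Golgi enzyme of the GalNAc-transferase family, which acts in mucin-type O-glycosylation. Tmem28, also named Fam155b, is a relative of Fam155a, a subunit of the NALCN sodium leak channel.

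The sequences that bear on the bin patterns are shown first. They were read from the GENCODE M21 transcripts, whose genome is GRCm38, the build of the counts. For Myo1a (+ strand) these are the last 60 bases of exon 9 (chr10:127710462-127710521), where counts were near 0, and exon 10 (chr10:127710878-127710996), in capitals, the first exon with counts in every library.
Myo1a exon 9 end: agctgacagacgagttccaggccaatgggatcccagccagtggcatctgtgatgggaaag
Myo1a exon 10: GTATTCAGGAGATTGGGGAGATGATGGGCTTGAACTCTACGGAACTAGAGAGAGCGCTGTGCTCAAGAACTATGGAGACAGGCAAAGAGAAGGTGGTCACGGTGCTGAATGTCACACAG

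For Serpinb1c (- strand) coding exons 4 (chr13:32886154-32886271), 5 (chr13:32884221-32884363) and 6 (chr13:32883877-32884044) are shown, because its paralogs could share reads with it. Capitals mark bases covered by windows of 50 bases that also occur in a transcript of another gene, Serpinb1a, Serpinb1b or Serpinb1-ps1.
Serpinb1c exon 4: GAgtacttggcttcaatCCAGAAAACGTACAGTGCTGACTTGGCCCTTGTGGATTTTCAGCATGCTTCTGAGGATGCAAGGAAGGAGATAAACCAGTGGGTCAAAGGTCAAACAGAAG
Serpinb1c exon 5: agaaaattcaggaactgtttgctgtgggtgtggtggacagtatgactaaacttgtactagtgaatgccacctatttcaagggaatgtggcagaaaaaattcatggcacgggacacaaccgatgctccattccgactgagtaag
Serpinb1c exon 6: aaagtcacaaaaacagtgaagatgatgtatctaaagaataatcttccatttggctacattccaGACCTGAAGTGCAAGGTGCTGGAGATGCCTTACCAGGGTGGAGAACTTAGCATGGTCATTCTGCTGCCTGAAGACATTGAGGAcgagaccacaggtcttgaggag
Windows shared with other genes made up 105 of 1584 (6.63%) in the Serpinb1c transcript and 0 in the transcripts of the other 4 genes. They covered 103 of the 118 bases of exon 4, 83 of the 168 bases of exon 6 and none of exon 5.

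For Tmem28 (+ strand) the coding stretch of exon 1 around its longest run of CTG is shown (chrX:99821092-99821172), with the run in capitals, because the antisense part of Pip6a-PMO is directed at CUG repeats.
Tmem28 exon 1: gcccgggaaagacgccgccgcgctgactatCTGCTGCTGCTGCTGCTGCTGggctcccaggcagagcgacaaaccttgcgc
The run holds 7 uninterrupted CTG (chrX:99821122-99821142). A run of at least 7 CTG on the sense strand was found in the transcripts of 50 of 15904 tested genes (0.314%), while the longest run was 2 CTG in Myo1a, Lrba, Serpinb1c and Galnt7.

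Levels are given in CPM (counts scaled by library size, with TMM factors over the 18 libraries), for mice 1, 2 and 3 in order. Myo1a was at the edge of detection in WT mice and abundant in HSA-LR mice. In the gastrocnemius its 3 WT libraries had 0.295, 0.617 and 0.866 CPM, its HSA-LR libraries 44.5, 32.3 and 47.7 CPM and its treated libraries 13.8, 13.7 and 24.3 CPM. In the quadriceps they had 0.80, 0.465 and 0.583 CPM in WT, 18.8, 24.3 and 27.5 CPM in HSA-LR and 14, 9.30 and 14.1 CPM in treated mice. The 3 groups did not overlap in either muscle, with treated mice between the others. The mean of HSA-LR mice was 70.0-fold that of WT mice in the gastrocnemius and 38.2-fold in the quadriceps, and that of treated mice 29.1-fold and 20.2-fold.

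Lrba was near 7 CPM in WT mice and several fold higher in both HSA-LR groups. Gastrocnemius libraries had 6.86, 8.48 and 6.66 CPM in WT, 51.0, 46.2 and 50.5 CPM in HSA-LR and 49.0, 49.4 and 27.4 CPM in treated mice. Quadriceps libraries had 6.86, 7.11 and 5.14 CPM in WT, 38.7, 44.6 and 45.7 CPM in HSA-LR and 56.6, 60.8 and 34.6 CPM in treated mice. All HSA-LR and treated libraries lay above all WT libraries in both muscles, and treated overlapped HSA-LR mice in both. In the quadriceps all 3 treated libraries lay outside the HSA-LR range, 2 above it and 1 below. HSA-LR mice had 6.71-fold (gastrocnemius) and 6.75-fold (quadriceps) the WT mean, and treated mice 5.72-fold and 7.95-fold.

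The low gastrocnemius library of treated mouse 3 also had less coverage of 5′ exons than any other library. Over 2000 genes the median ratio of 5′ to 3′ coverage was 0.222 there and 0.282 to 0.313 in the other 17 libraries. Of the 3 treated gastrocnemius libraries it had the lowest Lrba and Galnt7 and the highest Myo1a. The quadriceps library of the same mouse, with a ratio of 0.309, also had the lowest Lrba of the treated ones. In its gastrocnemius library Lrba bins 24 to 71 held 97.6% of the Lrba counts. They had 26.7 CPM there against 48.5 and 47.5 in treated mice 1 and 2. The part of coverage in these values was not tested. Without this library, the log2 fold change of treated against WT mice was 2.75 for Lrba, against 2.51 with it.

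Serpinb1c was low in WT mice and several fold higher in both HSA-LR groups. In the gastrocnemius WT mice had 1.02, 0.868 and 0.900 CPM, HSA-LR mice 5.07, 4.08 and 5.57 CPM and treated mice 4.92, 4.30 and 4.80 CPM. In the quadriceps WT mice had 1.25, 1.56 and 1.39 CPM, HSA-LR mice 8.77, 7.20 and 6.77 CPM and treated mice 4.71, 6.19 and 5.21 CPM. HSA-LR and treated mice overlapped in the gastrocnemius and did not in the quadriceps, where all treated mice were lower. The HSA-LR mean was 5.29-fold and 5.41-fold the WT mean in gastrocnemius and quadriceps, and the treated mean 5.03-fold and 3.84-fold.

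Galnt7 followed the same order in both muscles. Gastrocnemius libraries had 2.82, 2.78 and 4.33 CPM in WT, 16.5, 13.7 and 18.3 CPM in HSA-LR and 11.6, 14 and 8.55 CPM in treated mice. Quadriceps libraries had 2.36, 2.63 and 3.12 CPM in WT, 12.6, 12.7 and 13.9 CPM in HSA-LR and 9.26, 10.7 and 9.39 CPM in treated mice. Treated mice lay between WT and HSA-LR mice in both muscles, with 1 gastrocnemius library inside the HSA-LR range. The HSA-LR mean was 4.89-fold and 4.82-fold the WT mean, and the treated mean 3.44-fold and 3.61-fold.

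Tmem28 had few counts, 10 to 122 in a library, and did not share this pattern. Gastrocnemius libraries had 0.410, 0.136 and 0.658 CPM in WT, 0.131, 0.230 and 0.220 CPM in HSA-LR and 0.220, 0.290 and 0.309 CPM in treated mice. Quadriceps libraries had 0.114, 0.0878 and 0.360 CPM in WT, 0.390, 0.588 and 1.02 CPM in HSA-LR and 0.545, 0.488 and 0.390 CPM in treated mice. In the gastrocnemius all 3 groups overlapped and the HSA-LR mean was 0.482-fold the WT mean, so the gene did not stand above WT mice there. In the quadriceps both HSA-LR groups lay above all WT libraries, at 3.56-fold and 2.53-fold the WT mean. In both muscles the highest WT library was that of mouse 3.

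**Figure D1:**
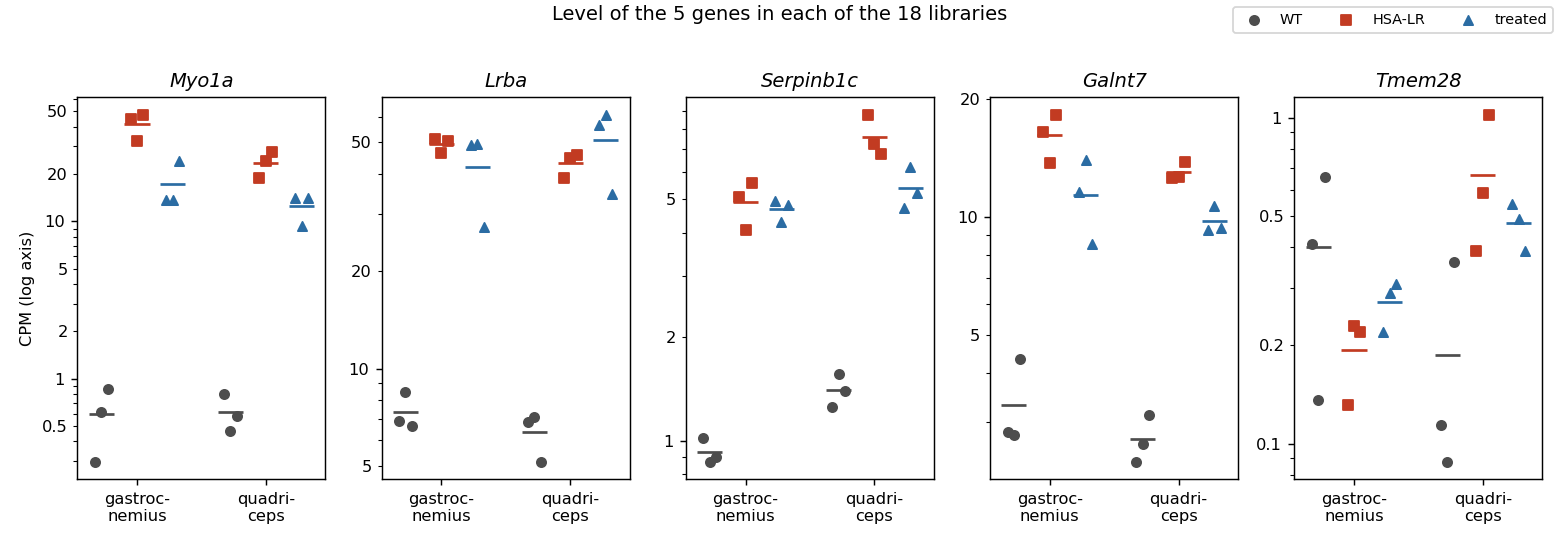
CPM on a log axis for each gene and muscle, with 1 point per library (3 per group, WT circles, HSA-LR squares, treated triangles) and a line at each group mean. In Myo1a, Lrba, Serpinb1c and Galnt7 every HSA-LR and treated library lay above every WT library of its muscle, while the Tmem28 groups overlapped in the gastrocnemius.

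The labelled sex of 2 WT mice did not match Ddx3y, a gene of the Y chromosome. WT mouse 3, labelled male, had 62 and 57 Ddx3y counts in gastrocnemius and quadriceps, and WT mouse 2, labelled female, 8973 and 9718. The other libraries had 4264 to 10841. Tmem28 lies on the X chromosome, and without WT mouse 3 its log2 fold change of HSA-LR against WT mice was -0.50 in place of -1.06 in the gastrocnemius and 2.72 in place of 1.82 in the quadriceps. For the other 4 genes, the ranges given with the fitted values include the fits without WT mouse 2 and without WT mouse 3. In the gastrocnemius these fits set some ends of the ranges. The log2 fold change of HSA-LR against WT mice was 6.47 for Myo1a without WT mouse 3. It was 2.85 for Lrba and 2.16 for Galnt7 without WT mouse 2, and 2.67 and 2.52 without WT mouse 3.

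On the log2 scale the fitted fold changes of HSA-LR against WT mice in gastrocnemius and quadriceps were 6.10 and 5.26 for Myo1a, 2.74 and 2.76 for Lrba, 2.39 and 2.44 for Serpinb1c and 2.28 and 2.27 for Galnt7. With each mouse left out in turn they ran from 5.79 to 6.47 and 5.09 to 5.49 for Myo1a, from 2.67 to 2.85 and 2.63 to 2.84 for Lrba, from 2.28 to 2.50 and 2.31 to 2.52 for Serpinb1c, and from 2.16 to 2.52 and 2.18 to 2.39 for Galnt7. Over all genes tested, 15.5% (gastrocnemius) and 20.3% (quadriceps) were called in this contrast at an adjusted P under 0.1, and 1.04% and 1.41% in treated against WT mice. Since the genes were selected on these contrasts, nothing is read from their own calls.

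The fitted values of treated against WT mice were 4.84 and 4.34 for Myo1a, 2.51 and 3.0 for Lrba, 2.33 and 1.94 for Serpinb1c and 1.78 and 1.86 for Galnt7. The correction index is 100 times 1 minus the ratio of the log2 fold change of treated to that of HSA-LR mice, both against WT mice. It was 20.7% and 17.4% for Myo1a, 8.11% and -8.65% for Lrba, 2.62% and 20.2% for Serpinb1c and 21.8% and 18.1% for Galnt7. With 1 mouse left out the Lrba index was 0.00916% (gastrocnemius) and -16.1% (quadriceps) without treated mouse 3, 13% in the gastrocnemius without treated mouse 1 and -3.30% in the quadriceps without treated mouse 2. That of Serpinb1c in the gastrocnemius was -1.76% without HSA-LR mouse 3 and 7.10% without HSA-LR mouse 2. The Myo1a index stayed between 14.1% and 26.1%, that of Galnt7 between 14.7% and 29.5% and that of Serpinb1c in the quadriceps between 16.2% and 24.9%. For Tmem28 it was 26.8% in the quadriceps, 2.97% without HSA-LR mouse 3, and in the gastrocnemius, where HSA-LR mice did not stand above WT mice, the index has no bearing on a return.

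Per kilobase of exon, Myo1a went from the fourth place among the 5 genes in WT mice to the highest in HSA-LR mice. Its mean level was 0.172 ± 0.0832 CPM per kb in WT, 12.1 ± 2.37 in HSA-LR and 5.01 ± 1.77 in treated gastrocnemius (SD, n = 3). The length used was that of all annotated exon bases, 19324 for Lrba, 5253 for Galnt7, 3439 for Myo1a and 1633 for Serpinb1c. For Lrba and Galnt7 it exceeds the length of the transcript read above, which holds only 9839 and 4264 windows. The places of Lrba and Galnt7 therefore depend on the length used, and an order by transcript length was not tested. A fragment also adds to every bin it touches, which raises the level per kilobase most in genes with short bins. The part of this in the order, and in the place of Myo1a, was not tested. By annotated exon bases, Galnt7 (3.08 ± 0.434), Serpinb1c (3.01 ± 0.464) and Lrba (2.55 ± 0.136 CPM per kb) came next in HSA-LR gastrocnemius. They lay within about 1 SD of a neighbour in that order. Tmem28 was lowest in every group, at 0.0479 to 0.170 CPM per kb. In treated quadriceps Myo1a (3.63 ± 0.798) and Serpinb1c (3.29 ± 0.460 CPM per kb) did not differ beyond their SD.

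Whether treatment moved the genes was tested as treated against untreated HSA-LR mice, by edgeR's quasi-likelihood test adjusted over all genes. The choice of members used the same treated and HSA-LR libraries. Choosing on treated levels favours small falls, and choosing on HSA-LR levels favours large ones. A call and a missing call therefore both say little, and the falls below describe these libraries. In the gastrocnemius 1 of the 5 genes was called, where 10% of all genes were, and in the quadriceps 3 of the 5 were called, where 13.8% of all genes were.

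Myo1a fell in both muscles. Its log2 fold change was -1.26 (95% interval -1.98 to -0.54, adjusted P = 0.0566) in the gastrocnemius and -0.91 (-1.42 to -0.40, adjusted P = 0.0466) in the quadriceps, a level of 0.417-fold and 0.531-fold that of HSA-LR mice. All 3 treated mice were lower than all 3 HSA-LR mice in each muscle. The gastrocnemius call was lost without HSA-LR mouse 1, 2 or 3 (adjusted P 0.170, 0.103 and 0.147) or treated mouse 1 or 2 (0.127 and 0.149), with a range of 0.00233 to 0.170 over all alternatives. The quadriceps call was lost without HSA-LR mouse 2 (0.125) or treated mouse 1 or 2 (0.102 and 0.12), with a range of 0.00162 to 0.125.

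Galnt7 and Serpinb1c fell in the quadriceps. For Galnt7 the log2 fold change was -0.41 (95% interval -0.69 to -0.14, adjusted P = 0.0759), and for Serpinb1c -0.49 (-0.83 to -0.15, adjusted P = 0.0805). All treated mice were lower than all HSA-LR mice for both genes. The Galnt7 call was lost without any one of HSA-LR mice 1, 2 and 3 (adjusted P 0.164, 0.163 and 0.130) or treated mice 1, 2 and 3 (0.215, 0.113 and 0.151), with a range of 0.0191 to 0.215 over all alternatives. The Serpinb1c call was lost without HSA-LR mouse 1 or 2 (0.265 and 0.168) or treated mouse 1 or 3 (0.230 and 0.168), with a range of 0.0295 to 0.265.

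In the gastrocnemius the same 2 genes were not called. Galnt7 had a log2 fold change of -0.50 (95% interval -0.99 to -0.01, adjusted P = 0.222) and Serpinb1c one of -0.06 (-0.38 to 0.26, adjusted P = 0.832). For Serpinb1c the interval reaches from a level of 0.767-fold to one of 1.20-fold that of HSA-LR mice. Lrba was called in neither muscle, with -0.22 (-0.68 to 0.23, adjusted P = 0.557) in the gastrocnemius and 0.24 (-0.22 to 0.70, adjusted P = 0.485) in the quadriceps. Tmem28, at its low counts, had 0.50 (-0.65 to 1.64, adjusted P = 0.608) and -0.49 (-1.64 to 0.66, adjusted P = 0.570), intervals too wide to tell a rise from a fall.

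**Figure D2:**
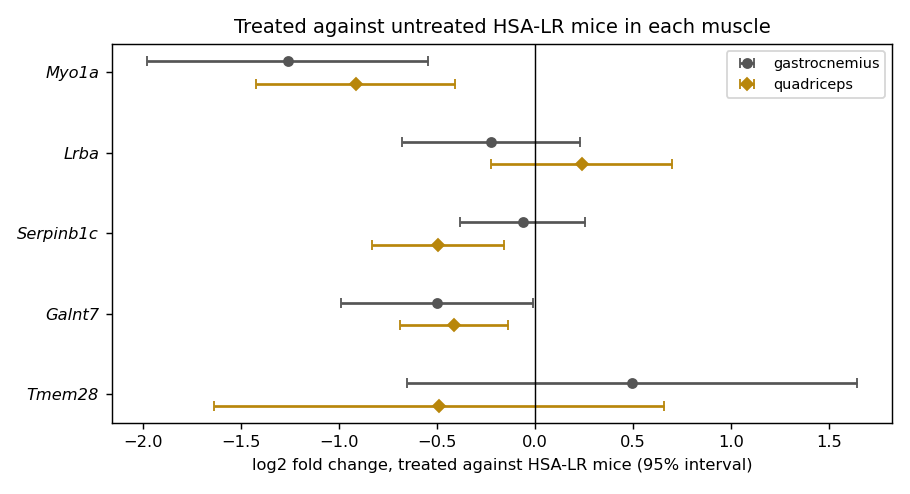
Fitted log2 fold change of treated against untreated HSA-LR mice (points) with 95% intervals (bars) for each gene in gastrocnemius (circles) and quadriceps (diamonds). The intervals of Myo1a and Galnt7 lie below 0 in both muscles, that of Serpinb1c in the quadriceps only, and the Lrba and Tmem28 intervals cross 0 in both.

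Whether both muscles were alike was tested in 1 fit of all 18 libraries. The choice of genes may have used the HSA-LR effect in both muscles, which would favour alike effects. A missing call for that effect is therefore not read as likeness. The difference between the muscles in the HSA-LR effect was called for 0 of the 5 genes and 0% of 16167 genes by edgeR's quasi-likelihood test, with 710 genes at an unadjusted P under 0.05, and the difference in the treatment effect for 0 of the 5 and 0% of all genes, with 1271. Under DESeq2 and limma voom, too, 0 of the 5 genes were called in either. For the HSA-LR effect the log2 difference, quadriceps minus gastrocnemius, was -0.86 (95% interval -1.86 to 0.14) for Myo1a, 0.01 (-0.65 to 0.67) for Lrba, 0.03 (-0.42 to 0.49) for Serpinb1c and -0.02 (-0.59 to 0.55) for Galnt7. It was 2.87 (1.22 to 4.53) for Tmem28, with an unadjusted P of 0.0021 and an adjusted P of 0.676.

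For the treatment effect the same difference was 0.35 (-0.55 to 1.25) for Myo1a, 0.47 (-0.19 to 1.12) for Lrba, -0.43 (-0.86 to 0.01) for Serpinb1c, 0.09 (-0.47 to 0.65) for Galnt7 and -0.98 (-2.60 to 0.64) for Tmem28. The call of Serpinb1c in the quadriceps and not in the gastrocnemius is therefore not shown to be a difference between the muscles (adjusted P = 0.636).

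Between the muscles of the same condition, 0 of the 5 genes were called in WT mice (0.297% of all genes, with 1 of the 5 and 1437 genes at an unadjusted P under 0.05), 1 in HSA-LR mice (2.21%, with 3 of the 5 and 2171 genes at an unadjusted P under 0.05) and again 0 in treated mice (1.47%, with 0 of the 5 and 2536 genes at an unadjusted P under 0.05). DESeq2 called 1 of the 5 in WT mice, Serpinb1c. The gene called in HSA-LR mice was Serpinb1c, higher in the quadriceps by a log2 fold change of 0.63 (95% interval 0.32 to 0.93, adjusted P = 0.0570), and every quadriceps library was above every gastrocnemius library. The call was lost without HSA-LR mouse 1 (adjusted P 0.407) or 2 (0.416), with a range of 0.003 to 0.416 over all alternatives. In WT mice the Serpinb1c difference was 0.59 (0.27 to 0.92, adjusted P = 0.148), and in treated mice 0.20 (-0.11 to 0.51, adjusted P = 0.541). Myo1a was not called in HSA-LR mice, with -0.82 (-1.46 to -0.18, unadjusted P = 0.0159, adjusted P = 0.234), though every quadriceps library lay below every gastrocnemius library. Its adjusted P ran from 0.0754, with the largest bin of the gene, to 0.749 over all alternatives.

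Both muscles with 1 number are from 1 mouse, and with the mouse as a block 2 more calls were made. Tmem28 was higher in the quadriceps of HSA-LR mice (log2 fold change 1.72, adjusted P = 0.0202, against 1.78 and adjusted P = 0.145 with no block), and Lrba in the quadriceps of treated mice (0.28, adjusted P = 0.0985, against 0.27 and adjusted P = 0.592). Tmem28 was also called by DESeq2 (adjusted P = 0.0381) and without WT mouse 2 or 3 (0.0907 and 0.0616), with a range of 0.0202 to 0.517 over all alternatives. Lrba was higher in the quadriceps than in the gastrocnemius of each treated mouse. With the largest bin of each gene in place of the sum of bins, the Lrba difference turned to -0.37.

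The bins show which stretch of each gene carried the counts. A bin is a piece of annotated exon, numbered along the chromosome, and the bins described are those with at least 10 counts on average over the 9 libraries of a muscle. A bin low in WT mice could reach this minimum only where it was high in HSA-LR or treated mice, so how many described bins lay above WT mice is partly set by the minimum. Bins with at least 10 counts on average in WT mice alone, a choice made after the values were seen, are therefore given too. The genes were picked on levels against WT mice, so bins that lie above WT mice largely restate that choice. The share of all bins that separate in this way is not given, and the counts of such bins are descriptions. Myo1a (chr10:127705170-127720940, + strand) has 27 bins. The counts use an earlier version of this gene than GENCODE M21, so its bins were taken as the exons of the only transcript with 27 exons, while the other 4 genes have as many bins as in M21. Exons 1 to 9, 978 bases in all, held 0 to 32 counts in a library, and exons 10 to 27, 2461 bases, held 36 to 5769.

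In the HSA-LR gastrocnemius exons 1 to 9 had 10, 4 and 5 counts against 5769, 4199 and 5638 in exons 10 to 27. In WT gastrocnemius they had 0, 0 and 8 against 36, 86 and 117 counts. The step lay between the neighbouring exons printed above, since exon 9 had 1, 3 and 4 counts and exon 10 had 223, 160 and 204 in the HSA-LR gastrocnemius. In the quadriceps of HSA-LR mice exon 9 had 1, 8 and 8 counts and exon 10 had 67, 107 and 129. Exons 1 to 9 had 3, 6 and 8 counts in WT, 18, 32 and 15 in HSA-LR and 2, 5 and 3 in treated quadriceps, so HSA-LR mice were higher there too, at a few counts. The counts that set HSA-LR and treated mice apart from WT mice thus lay from exon 10 to the end of the gene in both muscles, and exons 1 to 9 took at most 0.943% of them in any HSA-LR or treated library.

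The 18 described bins of Myo1a, exons 10 to 27, had every HSA-LR library and every treated library above every WT library in both muscles. None of the 18 had a mean of 10 counts in WT mice, so all of them passed through the other groups. Their ratio of HSA-LR to WT mean ran from 35.9 to 191 in the gastrocnemius and from 17.7 to 83.7 in the quadriceps. Among these exons the share of the gene's counts in HSA-LR mice was highest against WT in exons 26 (2.61 times the WT share in the gastrocnemius, 1.33 times in the quadriceps) and 25 (1.78 and 2.13 times) and lowest in exons 18 (0.548 and 1.33 times) and 19 (0.676 and 2.09 times). WT shares rest on 36 to 125 counts for the whole gene, and the exons at the ends of this range were not on the same side in both muscles. Of 6 brush border markers 5 (Fabp2, Alpi, Cdx1, Sis and Lct) stayed under 0.1 CPM in every library, the 6 together at 0 to 0.197 CPM.

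**Figure D3:**
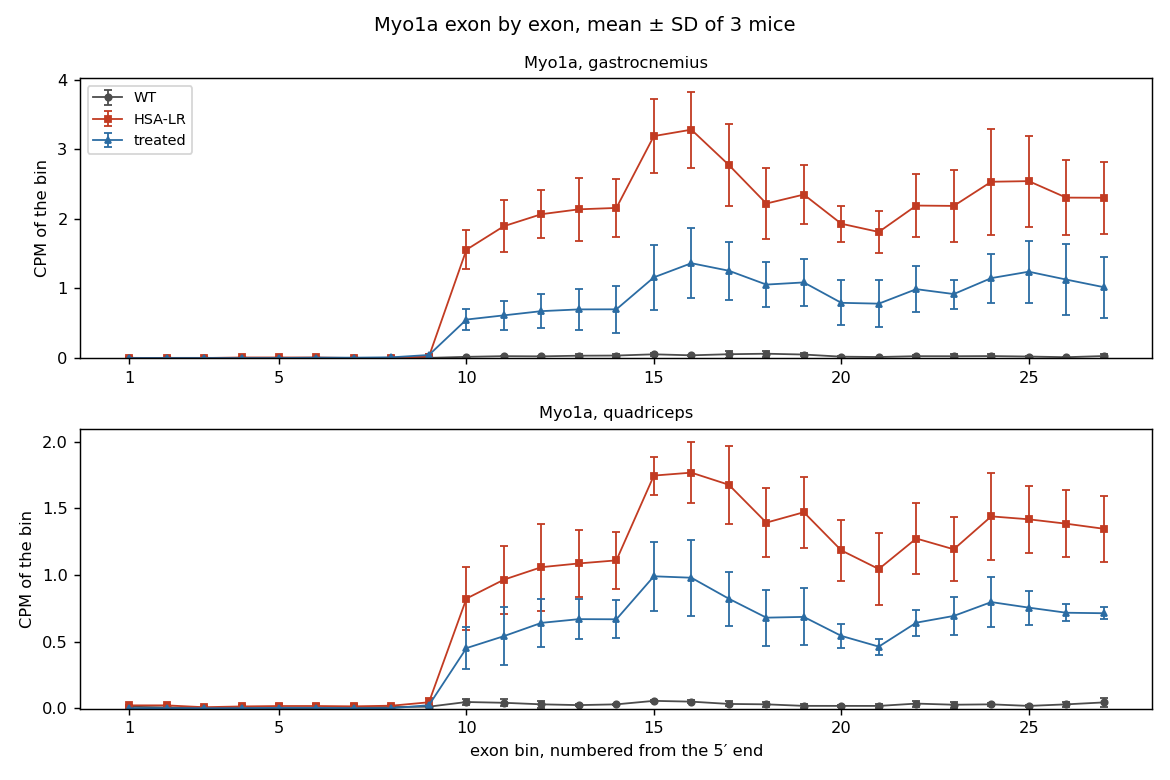
CPM of each Myo1a exon from the 5′ end (x axis) in gastrocnemius (top) and quadriceps (bottom), as the mean with bars of 1 SD over 3 mice, for WT, HSA-LR and treated mice. Nearly all counts lie from exon 10 on in HSA-LR and treated mice, with treated mice between HSA-LR and WT mice from there to exon 27.

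Lrba (chr3:86224680-86782692, + strand) has 71 bins. Bins along the gene were higher than in WT mice on average, with a 5′ stretch that varied more between mice and in which 1 HSA-LR library lay below WT mice. Of its bins 25 in the gastrocnemius and 19 in the quadriceps had a mean of 10 counts in WT mice, and in each of these every HSA-LR library was above every WT library. Every treated library was too in 24 and 19 of them. Over the 36 and 57 described bins the ratio of HSA-LR to WT mean was 4.75 to 13.8 and 2.63 to 17.0, and every HSA-LR library was above every WT library in 36 and 36.

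The stretch that varied was bins 1 to 23, exons 1 to 22 and 3061 bases of the transcript, before the 1050 bases of exon 23. In the quadriceps these bins had 33, 46 and 42 counts in WT, 19, 517 and 218 in HSA-LR and 742, 902 and 187 in treated mice. HSA-LR mouse 1, at 0.456% of its Lrba counts, was below all WT mice there, while its bins 24 to 71 had 4150 counts against 747, 764 and 558 in WT mice. In the gastrocnemius bins 1 to 23 had 15, 42 and 23 counts in WT, 257, 256 and 343 in HSA-LR and 73, 235 and 65 in treated mice.

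The share of the Lrba counts in bins 1 to 23 was 2.58% ± 0.895 in WT, 4.62% ± 0.985 in HSA-LR and 2.47% ± 1.35 in treated gastrocnemius (SD, n = 3). In the quadriceps it was 5.64% ± 1.39, 4.25% ± 3.93 and 9.57% ± 4.42. The order of the groups was not the same in both muscles. In the gastrocnemius every HSA-LR library (3.88%, 4.25% and 5.74%) lay above every WT library (1.79%, 3.55% and 2.39%). The treated libraries there (1.13%, 3.83% and 2.44%) were below the HSA-LR ones too. In the quadriceps the SDs overlapped. Treated mouse 1 had 1.13% in the gastrocnemius and 11.7% in the quadriceps. The largest ratios of HSA-LR to WT share were in the bin of the last 15 bases of exon 26 (2.14 times the WT share in the gastrocnemius, 1.94 times in the quadriceps, from a WT share of 0.239%) and exon 37 (2.09 and 2.59 times), and the smallest in exon 56 (0.703 and 0.667 times) and exon 57 (0.740 and 0.674 times), the last of the gene. Here the ends of the range were on the same side in both muscles.

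**Figure D4:**
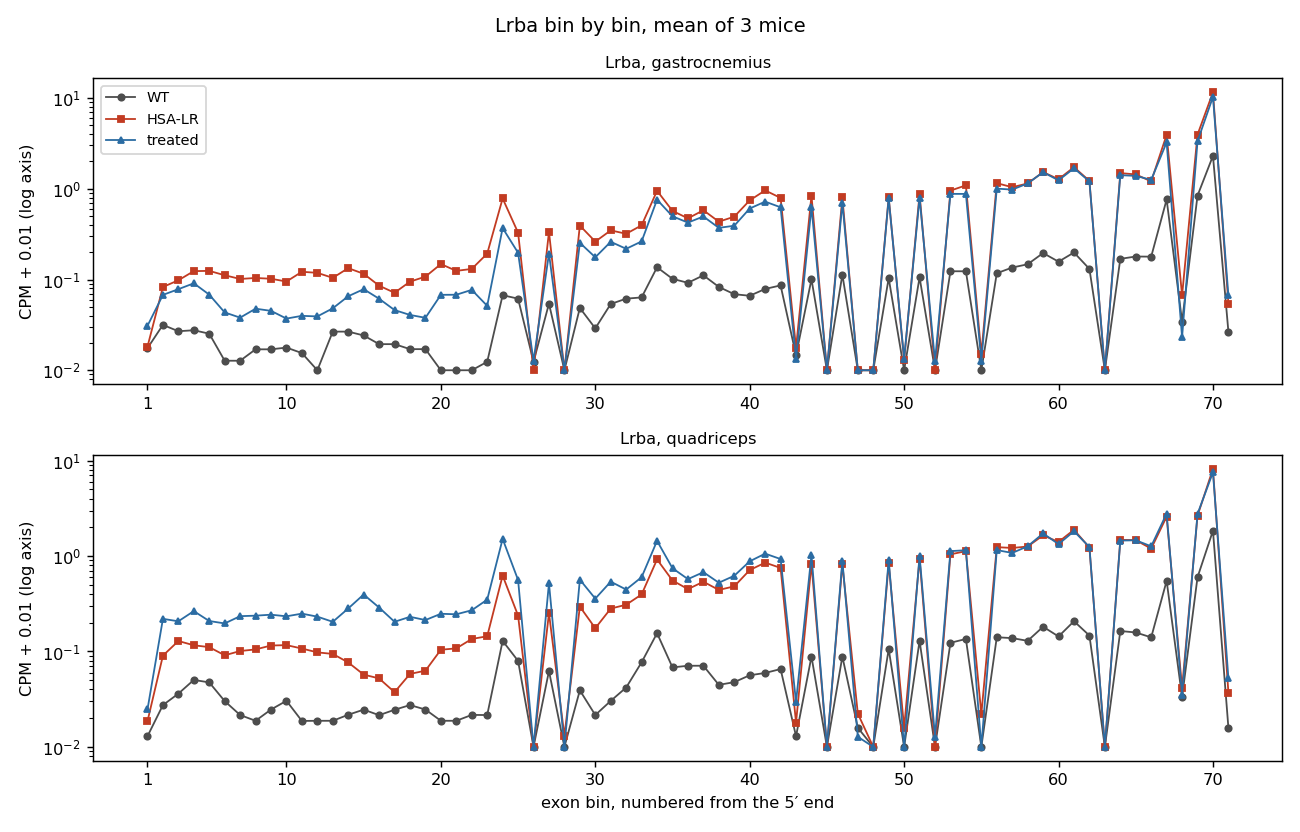
Mean CPM plus 0.01 of each Lrba bin from the 5′ end (x axis, log y axis) over 3 mice for WT, HSA-LR and treated mice in gastrocnemius (top) and quadriceps (bottom). HSA-LR and treated lines run above WT in the bins with enough counts to describe. Over bins 1 to 23 as a whole the treated mean lies below the HSA-LR mean in the gastrocnemius. In the quadriceps it lies above the HSA-LR mean, with libraries of the groups overlapping.

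Serpinb1c (chr13:32881434-32898211, - strand) has 10 bins, and its counts lay in exons 4, 5 and 7. The 5 described bins, which cover exons 4 and 5, exon 7 and part of exon 6 and of which 4 had a mean of 10 counts in WT mice, had every HSA-LR and every treated library above every WT library in both muscles, with HSA-LR to WT ratios of 4.83 to 6.46 in the gastrocnemius and 5.0 to 9.78 in the quadriceps. Exons 1 to 3 were nearly empty, with 0 counts in each WT gastrocnemius library, 19, 12 and 17 in HSA-LR and 5, 14 and 1 in treated mice. In the quadriceps they had 6, 1 and 0 counts in WT, 27, 34 and 12 in HSA-LR and 10, 20 and 9 in treated mice.

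The difference from WT mice was present in exons with and without shared windows. Exon 5, without any, had a mean of 18 counts in WT, 95 in HSA-LR and 86.7 in treated gastrocnemius, and 24.7, 146 and 114 counts in the quadriceps. Exon 7, where 1 of 743 windows is shared with another gene, had 89, 88 and 97 counts in WT, 439, 379 and 428 in HSA-LR and 453, 373 and 317 in treated gastrocnemius, 4.87-fold and 4.77-fold the WT mean in CPM. In the quadriceps it had 98, 127 and 114 counts in WT, 654, 657 and 557 in HSA-LR and 345, 473 and 418 in treated mice, 5.23-fold and 3.57-fold. Exon 6 held 0 to 29 counts in a library. Exon 4 had 1.22 times and exon 5 1.06 times the WT share in the gastrocnemius, the largest ratios, and the 2 bins of exon 7 0.925 and 0.926 times, the smallest, and in the quadriceps these ratios were 0.956, 1.04, 0.921 and 1.07.

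Upstream of these exons the annotations differ. RefSeq gives Serpinb1c a span of chr13:32881218-32940628 on GRCm38.p6, with a second start beyond that of GENCODE, and the GENCODE pseudogene Gm11382 (chr13:32938513-32938691, same strand) lies inside that span, 40302 bases from the GENCODE gene. Gm11382 is a neighbour by position, which the choice of genes did not use. If its counts come from Serpinb1c transcripts, its differences from WT mice repeat those that the choice used. Gm11382 had 9, 19 and 10 counts in WT, 77, 59 and 82 in HSA-LR and 80, 53 and 50 in treated gastrocnemius, and 11, 22 and 11, 122, 82 and 77, and 51, 82 and 54 counts in the quadriceps.

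Gm11382 rose in HSA-LR against WT mice by a log2 fold change of 2.61 (adjusted P = 0.00169) in the gastrocnemius and 2.61 (adjusted P = 0.00371) in the quadriceps, and remained higher in treated than in WT mice by 2.45 (adjusted P = 0.0146) and 2.05 (adjusted P = 0.0679). The treated call in the quadriceps held in 4 of the 9 fits with a mouse left out. Of all genes tested Gm11382 was the one most like Serpinb1c over the 18 libraries (Pearson r = 0.97 of log2 CPM). Whether its counts and those of Serpinb1c belong to 1 transcript was not tested.

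Galnt7 (chr8:57523828-57653032, - strand) has 20 bins. Of these 12 in the gastrocnemius and 11 in the quadriceps had a mean of 10 counts in WT mice, and in each of them every HSA-LR and treated library was above every WT library. The same held for the 15 described bins in both muscles, with HSA-LR to WT ratios of 3.99 to 6.91 in the gastrocnemius and 4.27 to 7.55 in the quadriceps. The last exon, exon 12, took 52.7% ± 2.27 of the counts in WT, 50.5% ± 1.34 in HSA-LR and 53.7% ± 6.81 in treated gastrocnemius (SD, n = 3), and 52.9% ± 2.98, 48.5% ± 1.32 and 46.9% ± 1.19 in the quadriceps. The high treated value, 61.2%, was in treated mouse 3, the library with the lowest 5′ coverage. The ratio of HSA-LR to WT share was highest in exons 6 (1.4 times the WT share in the gastrocnemius, 1.29 times in the quadriceps) and 3 (1.39 and 1.16 times) and lowest in exons 9 (0.841 and 1.16 times) and 8 (0.898 and 0.968 times).

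Tmem28 (chrX:99821021-99848790, + strand) has 3 exons, of which exon 3 alone had enough counts to describe. In the quadriceps exon 3 had 10, 10 and 33 counts in WT, 36, 63 and 96 in HSA-LR and 46, 55 and 41 in treated mice. Exons 1 and 2, with the run of 7 CTG in exon 1, had 3, 0 and 9 counts in WT, 6, 19 and 26 in HSA-LR and 15, 3 and 6 in treated mice. Exon 3 took 85.2% ± 12.9 of the counts in WT, 80.4% ± 4.69 in HSA-LR and 85.8% ± 9.79 in treated quadriceps (SD, n = 3), so at this depth no shift between its exons could be seen.

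**Figure D5:**
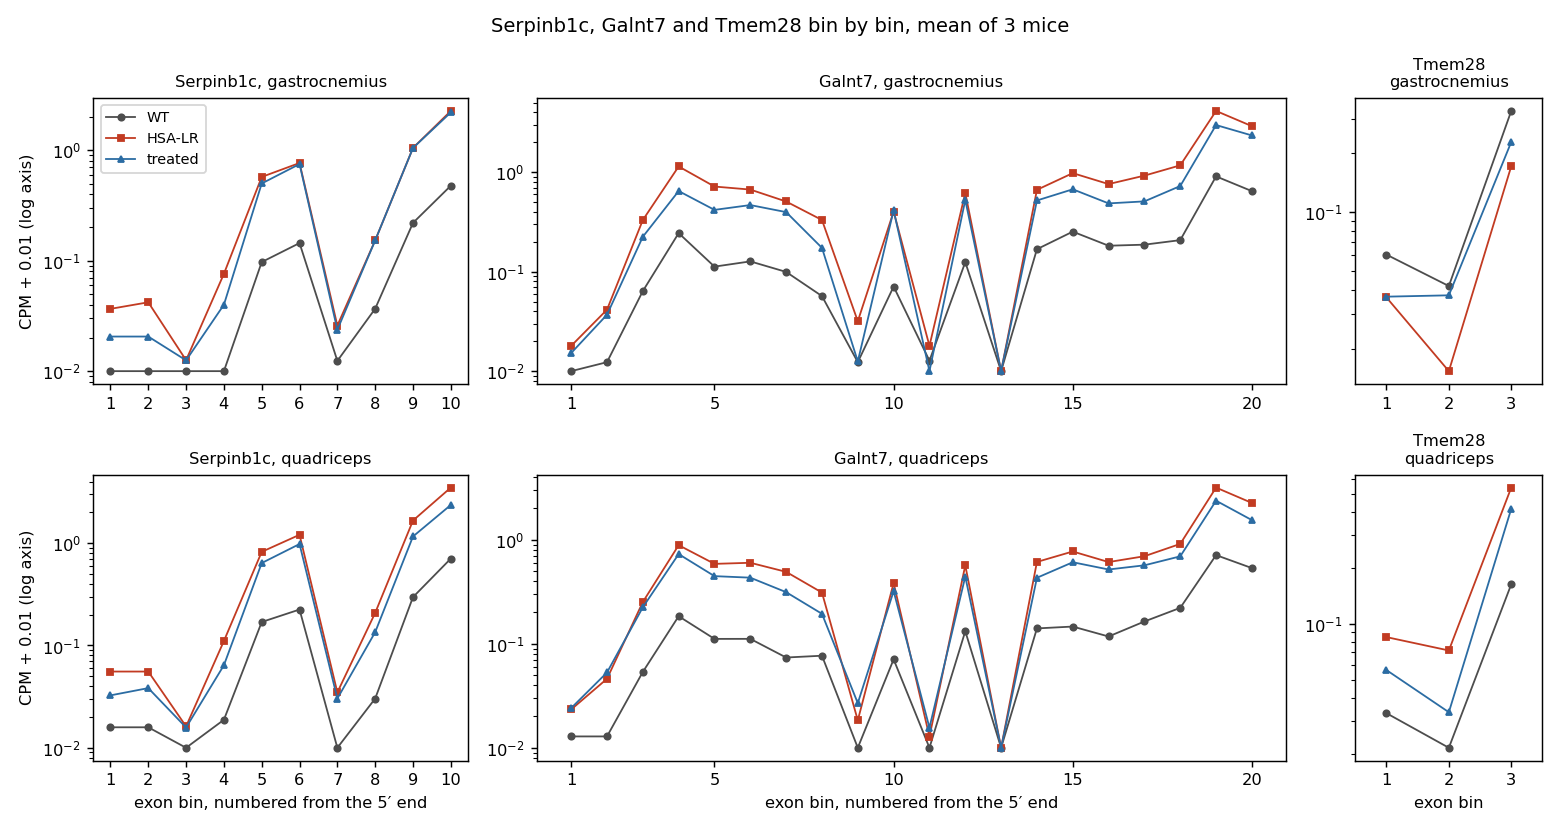
Mean CPM plus 0.01 of each bin from the 5′ end (x axis, log y axis) over 3 mice for WT, HSA-LR and treated mice in gastrocnemius (top) and quadriceps (bottom). In their described bins Serpinb1c and Galnt7 run above WT mice in both muscles, and Tmem28 does so in the quadriceps only.

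Whether treatment moved some bins of a gene more than others was tested with edgeR's diffSpliceDGE, which sets each bin against the other bins of its gene. No bin was called in the gastrocnemius (0 of 85 tested, against 0.309% of all bins) or the quadriceps (0 of 95, against 0.168%). At such shares of all bins, a lack of calls among so few bins says little. Lrba had 47 and 57 of the tested bins, and no bin of Tmem28 was tested in either muscle. At an unadjusted P under 0.05 there were 3 bins in the gastrocnemius and 6 in the quadriceps, all in Lrba between bins 11 and 24, lower relative to the gene in treated gastrocnemius and higher in treated quadriceps. The smallest adjusted P was 0.185, for Lrba bin 15 in the quadriceps, with 1, 15 and 3 counts in HSA-LR and 58, 67 and 9 in treated mice. This bin was called without HSA-LR mouse 2 (adjusted P = 0.0622) or treated mouse 3 (0.0127). A bin with few counts in HSA-LR mice, such as this bin, could pass the count minimum through the treated mice. These calls are therefore not read as a result. Nearby bins can also share fragments, so the bins at an unadjusted P under 0.05 are not separate results. Limma voom with diffSplice also called 0 bins in both muscles.

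The other genes of the 5 families, a list of class I myosins, BEACH-domain proteins, GalNAc-transferases, clade B serpins of chromosome 13 and NALCN channel genes, were examined next. Of 47 such genes in the counts, 34 were tested. Against WT mice, 2 were higher and 3 lower in HSA-LR gastrocnemius, and 6 higher and 1 lower in the quadriceps, 5 and 7 of 34 against the 15.5% and 20.3% of all genes given above. With 1 mouse left out the 5 became 2 (HSA-LR mouse 1), 1 (HSA-LR mouse 3) or 8 (treated mouse 3), and the 7 became 3 (WT mouse 1) or 4 (HSA-LR mouse 2 or 3, treated mouse 1 or 2). The median log2 fold change was 0.04 and -0.08, beside -0.01 and 0.01 over all genes. In treated against WT mice 0 of the 34 were called by edgeR in either muscle, with 5 and 7 at an unadjusted P under 0.05 and 2 and 1 called by DESeq2.

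Of these calls, Myo1c in the gastrocnemius and Serpinb1a, Serpinb6a and Serpinb6b in the quadriceps held with each mouse left out in turn, and the other 8 were each lost without at least 1 mouse.

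Among class I myosins Myo1c was lower in the gastrocnemius (log2 fold change -0.50, adjusted P = 0.0189), Myo1d lower in the quadriceps (-0.52, adjusted P = 0.0509) and Myo1f, a myosin of blood cells, higher there (0.73, adjusted P = 0.0896). Among GalNAc-transferases, the family of Galnt7, Galnt3 was higher in both muscles (2.93, adjusted P = 0.0353, and 2.50, adjusted P = 0.0890) and Galnt9 in the quadriceps (2.62, adjusted P = 0.0809). Galnt3 had 93, 87 and 7 counts in WT, 328, 434 and 604 in HSA-LR and 656, 647 and 161 in treated gastrocnemius, and 25, 25 and 0, 111, 100 and 90, and 86, 140 and 28 counts in the quadriceps, so both HSA-LR groups lay above WT mice in CPM. Its treated mice were not called against WT mice (3.05, adjusted P = 0.134, and 2.31, adjusted P = 0.320) or against HSA-LR mice (0.12, adjusted P = 0.934, and -0.19, adjusted P = 0.897). Without WT mouse 3, the lowest, HSA-LR against WT was 2.38 (adjusted P = 0.0265) and 1.92 (adjusted P = 0.0901). Galnt16 (-0.60, adjusted P = 0.0378) and Galnt6 (-1.80, adjusted P = 0.0935) were lower in the gastrocnemius. The BEACH-domain gene Wdfy3, an autophagy adaptor, was higher in the gastrocnemius (0.56, adjusted P = 0.0380). The 2 NALCN channel genes tested were called in neither muscle.

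Of the clade B serpins next to Serpinb1c, 5 were tested. In the quadriceps 3 of the 5 were higher in HSA-LR than in WT mice, Serpinb1a (log2 fold change 2.05, adjusted P = 0.0126), Serpinb6a (1.29, adjusted P = 0.00986) and Serpinb6b (1.77, adjusted P = 0.0142). In the gastrocnemius edgeR called 0 of 5, with 2 at an unadjusted P under 0.05 and 1 called by DESeq2. Serpinb1a had 3.03, 3.28 and 9.79 CPM in WT and 6.99, 6.47 and 8.49 CPM in HSA-LR gastrocnemius, a log2 fold change of 0.44 (adjusted P = 0.598) that became 1.20 (adjusted P = 0.0449) without WT mouse 3. Between the muscles the HSA-LR effect on Serpinb1a was not shown to differ (1.60, unadjusted P = 0.0258, adjusted P = 1.0). The 6 macrophage markers together had 80.0 to 104 CPM in HSA-LR quadriceps and 40.8 to 57.0 CPM in WT, against 69.3 to 79.1 and 54.3 to 73.4 CPM in the gastrocnemius, and their part was not tested. The 5 neutrophil markers together had 0.932 to 2.36 CPM in WT and 0.161 to 0.912 in HSA-LR gastrocnemius, and 0.272 to 1.14 and 0.201 to 0.443 CPM in the quadriceps, with Ly6g and Mpo under 0.1 CPM in every library. In treated against HSA-LR quadriceps Serpinb1a was lower (-1.26, adjusted P = 0.0899), and so was Galnt9 (-3.03, adjusted P = 0.0787). These were the 2 of 34 called there, where 13.8% of all genes were, and both were lost without any one of the HSA-LR or treated mice. In the gastrocnemius edgeR called 0 of 34, against 10% of all genes, with 3 at an unadjusted P under 0.05, and 1 was called by DESeq2 or with treated mouse 2 left out.

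The 2 nearest tested genes on either side of each of the 5 were examined for changes shared along the chromosome. Of 20 such neighbours 4 were higher and 2 lower in HSA-LR than in WT gastrocnemius, and 7 higher and 2 lower in the quadriceps, beside the 15.5% and 20.3% of all genes given above. In treated against WT mice 1 and 2 of the 20 were called, Gm11382 among them in both muscles, beside 1.04% and 1.41% of all genes. Between the 2 HSA-LR groups 3 and 2 were called, beside 10% and 13.8%. In the gastrocnemius the 6 calls became 3 without WT mouse 2 or HSA-LR mouse 1 or 2. In HSA-LR against WT mice, Gm11382, Pja1 and Sh3d19 in the gastrocnemius were called with each mouse left out. So were Efnb1, Gm11382, Mfap3l, Nab2, Serpinb1a, Serpinb6b and Sh3d19 in the quadriceps. In treated against WT quadriceps, Sh3d19 was called in 3 and Gm11382 in 4 of the 9 fits with a mouse left out. Nab2 was called in 6 of the 9 in treated against HSA-LR gastrocnemius. Beside Lrba, Sh3d19 was higher in both muscles (0.85, adjusted P = 0.00401, and 0.74, adjusted P = 0.0124) and still higher than in WT mice in treated quadriceps (0.83, adjusted P = 0.0551), and Rps3a1 in the quadriceps (0.23, adjusted P = 0.0845). Beside Myo1a, Nab2 was higher in the quadriceps (1.07, adjusted P = 0.0057) and fell on treatment in both muscles (-0.86, adjusted P = 0.0387, and -1.24, adjusted P = 0.00708).

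Beside Serpinb1c, Gm11382, Serpinb1a and Serpinb6b were called as given above. Beside Galnt7, 2500002B13Rik was higher in the gastrocnemius (0.47, adjusted P = 0.0819), and Mfap3l, 2979795 bases away, was lower there (-0.77, adjusted P = 0.0321) and higher in the quadriceps (0.45, adjusted P = 0.0285). Beside Tmem28, Pja1 was lower in both muscles (-0.58, adjusted P = 0.00407, and -0.46, adjusted P = 0.0701), Efnb1 lower in the quadriceps (-0.68, adjusted P = 0.0169) and Eda higher in the gastrocnemius (0.58, adjusted P = 0.0944). The nearest tested gene of Myo1a, Nemp1, 4121 bases away on the same strand, had -0.08 (adjusted P = 0.825) and 0.07 (adjusted P = 0.837).

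The genes most like each of the 5 were taken as the 3 with the highest Pearson r of log2 CPM over the 18 libraries, which share depth scaling and fall into the same 6 groups. For Myo1a they were Gm42895 (0.97), Galnt7 (0.967) and Kmt2d (0.96), and for Galnt7 Myo1a (0.967), Diaph1 (0.963) and Gm42895 (0.963). For Lrba they were Kmt2d (0.964), Gm42895 (0.958) and Trp73 (0.95), and for Serpinb1c Gm11382 (0.97), Lrtm2 (0.93) and Lrba (0.928). Kmt2d, a histone methyltransferase gene, went from means of 69.3 and 63.1 CPM in WT gastrocnemius and quadriceps to 206 and 187 in HSA-LR and 174 and 176 in treated mice.

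Gm42895 (0 or 1 count in each WT library) had 20 to 62 counts in each HSA-LR and treated library. Myo1a, Lrba, Serpinb1c and Galnt7 had Pearson r of 0.909 to 0.967 and Spearman rho of 0.6 to 0.839 with one another. They were picked for the same pattern over these libraries, which these values restate. Tmem28 had r of 0.241 to 0.327 and rho of 0.055 to 0.311 with the other 4, and its closest genes were Fam84a (0.829), Fgf16 (0.799) and Stbd1 (0.768).

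The 8 markers of skeletal muscle summed to 138800 to 247100 CPM, which matches the labelled tissue, and 3 markers of kidney to 0 to 0.0169 CPM. The 6 slow fiber markers summed to 2156 to 4447 CPM in WT, 1478 to 3227 in HSA-LR and 2305 to 11780 in treated gastrocnemius, and to 97.6 to 411, 18.1 to 95 and 38.0 to 1586 CPM in the quadriceps, where HSA-LR mice lay below WT mice. In the quadriceps 5 Schwann cell markers (48.2 to 70.3 against 86.9 to 111 CPM) and 5 endothelial markers (130 to 170 against 199 to 251 CPM) were also lower in HSA-LR than in WT mice without overlap. In the gastrocnemius the Schwann cell markers were too (91.9 to 115 against 119 to 138 CPM), and the endothelial markers overlapped (194 to 219 against 170 to 249 CPM). The 6 adipocyte markers (166 to 236 against 285 to 350 CPM) and 5 erythroid markers (507 to 678 against 775 to 3867 CPM) were also lower there without overlap. In the quadriceps both of these lists overlapped. The part of these cells and of fiber type in the 5 genes was not tested. In RNA from whole muscle, more cells that express a gene and more RNA per cell cannot be told apart.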

How the data were processed

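Each deposited file holds 1 library's raw counts for every exon bin, in DEXSeq layout, neither normalized nor pooled by the authors. The submitters' processing notes name CASAVA, HISAT and featureCounts 1.5.0, and the build GRCm38. Entries naming no gene, 2.81% to 4.14% of a library, were left out. Since a fragment adds to every bin it touches, sums over bins exceed fragment numbers, most where bins are short. Symbols, exons and transcripts came from GENCODE M21 (GRCm38), where 41211 of 41211 genes with the same identifier and version had the same number of bins (Myo1a and Serpinb1c are in an earlier version in the counts), and gene spans came from RefSeq (GRCm38.p6).

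Bins were summed per gene, filtered with filterByExpr (minimum count 10, minimum total 15), scaled by TMM and tested with edgeR's glmQLFit and glmQLFTest, fitting the 9 libraries of 1 muscle together, or all 18 for contrasts between muscles, and Benjamini-Hochberg adjustment over all genes. Bins were tested with diffSpliceDGE. A call is an adjusted P under 0.1, and 95% intervals come from the fitted standard errors. P-values measure the spread between 3 mice per group. Tools were R 4.3.3, edgeR 4.0.16, limma 3.58.1, DESeq2 1.42.0, the R package data.table (1.17.8), Python 3.11.15, pandas 2.3.3, numpy 2.4.6, scipy 1.17.1 and matplotlib 3.10.9. The fits were tested on simulated data. CPM of log2 comparisons had a prior count of 2. The 5 genes, the family lists and the tests were chosen with earlier results of these data known. Named were the 5 genes, the family genes and the 2 nearest tested neighbours per side called in HSA-LR against WT mice, the 3 genes most like each of the 5, the 2 bins at each end of the share ratios in the gastrocnemius, and Ddx3y. Other genes and bins were named after their values were seen. Family genes of the list with no symbol match in the counts were not used here.

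File names carry 1 animal number for the gastrocnemius and quadriceps of each mouse. Deviations from group means in these pairs had r of 0.0645 to 0.511 (median 0.215, 9 pairs), so the mouse was tried as a block. Alternatives were leaving out mice 1 at a time, a block on replicate number, only the largest bin per gene, looser and stricter count filters, upper-quartile scaling, DESeq2, limma voom and a fit of only the 2 groups compared. Proteins and the genome sequence, and so introns, were not analysed here.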

Additional observations from a re-analysis of the deposited data

How the results depend on the processing

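The fold changes of the 5 genes against WT mice kept their signs, 18 of 20 above 0, in every alternative. The genes were picked on these contrasts, so the kept signs are a description only. Tmem28 in treated against WT gastrocnemius was near 0 without WT mouse 3, at a log2 fold change of -0.0025. Left-out mice gave 0 to 1 members called in treated against HSA-LR gastrocnemius and 0 to 3 in the quadriceps, where at least 1 count in any library gave 1. The counts between muscles were 0 to 2 in HSA-LR mice with a mouse left out and 2 with the mouse as a replicate block, the largest bin or DESeq2, and DESeq2 gave 1 in WT mice and the replicate block 1 in treated mice. Family genes called in HSA-LR against WT mice were 1 to 8 (gastrocnemius) and 3 to 7 (quadriceps) with a mouse left out and 11 by the largest bin in the quadriceps. In treated against HSA-LR mice they were 0 to 1 and 0 to 3 with a mouse left out, 1 by the largest bin or DESeq2 in the gastrocnemius, and 1 by the replicate block and both other count filters in the quadriceps. Neighbours called in HSA-LR gastrocnemius were 3 to 8 with a mouse left out, and bins called in the quadriceps 0 to 1. Taking bins by their WT counts alone, chosen after seeing the data, left no Myo1a bin to count. Within a muscle the groups share only a number (median r of 0.0013 over 18 pairs), and the block there left Serpinb1c in the quadriceps at an adjusted P of 0.109. Signs turned where values were near 0. By the largest bin Lrba had -0.10 in treated against HSA-LR quadriceps, -0.37 between the muscles of treated mice and -0.20 for the HSA-LR effect between muscles, and under upper-quartile scaling Galnt7 had 0.011 for the latter. With a mouse left out, Serpinb1c in treated against HSA-LR gastrocnemius ran from -0.18 to 0.0402, Myo1a between WT muscles from -0.50 to 0.46, and the HSA-LR effect between muscles from -0.0578 to 0.11 for Lrba, -0.11 to 0.21 for Serpinb1c and -0.15 to 0.0785 for Galnt7, whose treatment effect ran from -0.0499 to 0.20. The cause was not tested. Depth limits Tmem28 and the exons at 0 to 32 counts, where counting error alone is wide, and 3 mice per group limit every test.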
